A study of Sus scrofa with 9 samples.

Results

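The exonic 5-hydroxymethylcytosine (5hmC) profile of Lean-MSCs, the control mesenchymal stem/stromal cells of a swine study of obesity, was described across 18933 genes in 3 hMeDIP-seq libraries. Every gene of the table that holds these libraries was a member, so the description covers 18933 of 18933 genes and 3 of the 9 samples. The cells came from the subcutaneous abdominal fat of female domestic pigs that ate standard chow. The pigs were 3 months old when the diets began, and fat was taken after 16 weeks of diet. The cells were expanded in culture without the vitamin-C treatment given to some of the Obese-MSCs. The growth medium itself holds a little ascorbic acid phosphate. The other 6 samples, untreated Obese-MSCs and vitamin-C treated Obese-MSCs, came from pigs on a high-fat/high-fructose diet and were not compared here. The libraries are called Lean 7, Lean 8 and Lean 9 after their sample numbers, and genes were ranked by the mean of the 3.

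5hmC is made from 5-methylcytosine by the ten-eleven translocation (TET) dioxygenases and is both an intermediate of DNA demethylation and a lasting mark. It is found mainly at enhancers and over gene bodies, and it is usually scarce at unmethylated CpG island promoters. In hMeDIP-seq an antibody to 5hmC pulls down DNA fragments, so a value is meant to report marked DNA and not RNA. It reads the average of a culture of MSCs, plastic-adherent cells that can form fat, bone and cartilage. The paper also made libraries of input DNA, but no correction by input was made here, so background of the pull-down may remain in a value.

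Each value is a normalized count, that is, the reads over the exons of a gene after scaling between libraries, not divided by gene length. The 3 columns summed to 494566 to 507497, and the median gene had 12.4, 12.9 and 12.3 normalized counts in Lean 7, 8 and 9. Low values lay on steps close to 1 in Lean 8 and 9. In Lean 7 the values near 1 ran from 1.10 to 1.38, and no single step fitted most values. So 1 normalized count stands for about 1 read, more loosely in Lean 7, and a gene at 10 rests on about 10 reads in a library. Values under 0.5 were listed for 1145 genes in Lean 7, 870 in Lean 8 and 892 in Lean 9, and 226 genes were at 0 in all 3.

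The signal was spread over most genes but unevenly. In the mean of the 3 libraries, the highest 189 genes (1%) held 10.96% of all normalized counts and the highest 1893 (10%) held 45.9%, with 46.7%, 46.2% and 46.5% in the single libraries. The lower 50% of genes held 10.0%.

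The level per gene followed gene size. The median level was 2.45 normalized counts in the shortest 10% of genes, whose median span from start to end was 1.37 kb, and 39.2 in the longest 10%, whose median span was 243 kb. Per kb of gene span the order turned around, from 1.82 normalized counts per kb in the shortest genes to 0.152 in the longest. Across 18914 genes with 1 position, Spearman's rho with gene span was 0.53 for the level per gene and -0.50 for the level per kb, both as descriptions over genes, which are not independent. The span includes introns while the reads were counted over exons only, so a level per kb of span is not a density over exons. Each gene was also given its percentile among the genes of the same 1 of 20 bins of gene span. It is called here the span percentile, and the median gene lies at 50. The span percentile does not match exonic length either, so genes with more exonic sequence at equal span can still rank higher. That scale was chosen after the values were seen.

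**Figure D1:**
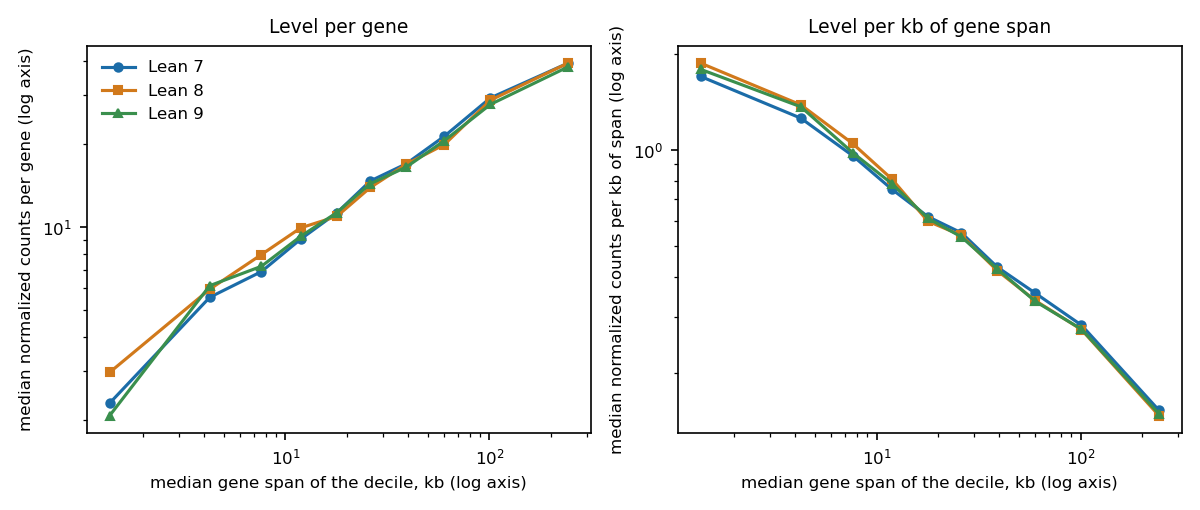
Median exonic 5hmC by decile of gene span in each Lean-MSC library, as normalized counts per gene (left) and per kb of gene span (right), on log axes. The level per gene runs from a median of 2.45 in the shortest decile to 39.2 in the longest, the level per kb from 1.82 to 0.152, and the 3 libraries nearly coincide.

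The 10 genes with the highest level per gene were all long, with spans of 79.0 to 813 kb, and they included matrix, chromatin and signalling genes. ZBTB20, a zinc finger transcriptional repressor at chr13:144855821-145668320 of Sscrofa11.1, was first with 854, 936 and 1014 normalized counts in Lean 7, 8 and 9. FN1, which encodes the matrix glycoprotein fibronectin (chr15:117658158-117737145), followed with 805, 870 and 908. JARID2, a cofactor of Polycomb repressive complex 2 (chr7:11358243-11601715), had 708, 701 and 659. The libraries of each of these genes lay close together, and over the 10 genes the coefficient of variation (CV, SD over mean) ran from 0.00959 to 0.191.

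The others were LRRC8D, a subunit of the volume-regulated anion channel, RBFOX2, a splicing regulator, BMPR1B, a receptor for bone morphogenetic proteins, SAMD12, SMG6, an endonuclease of nonsense-mediated mRNA decay, COL12A1, a fibril-associated collagen, and C14H12orf49. BMPR1B had the widest spread of the 10, with 490, 641 and 722 normalized counts. The border of the list was narrow, since the 10th gene, C14H12orf49, had a mean of 586 and the 11th, GNPTAB, had 584.

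Per kb of gene span the order was led by small genes. The 20 highest genes with a mean of at least 10 and at least 5 in each library had spans of 0.629 to 7.84 kb and 32.9 to 77.9 normalized counts per kb, and 6 of them were LOC loci without a gene name. Of all 18933 genes, 2828 were such loci. PFN1, the actin-binding protein profilin 1 (chr12:51962642-51965570), had 102, 97.3 and 98.6 normalized counts, or 33.9 ± 0.775 per kb (SD, n = 3), and was nearly equal in the 3 libraries.

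CTGF, a matricellular protein of wound repair, had 105, 139 and 125 normalized counts, or 37.3 per kb. CCL2, a chemokine that draws monocytes, had 84.6, 83.4 and 52.5, or 38.6 per kb. HCAR2, the niacin and hydroxybutyrate receptor of adipocytes and immune cells, had 121, 116 and 199, or 63.8 per kb. Lean 9 was the low library for CCL2 and the high one for HCAR2. The platelet chemokine PPBP (58.7 per kb), the orphan receptor GPR151 (51.4), the trace amine receptor TAAR3 (43.7), LY6G6C (40.1), TPD52L3 (37.1), TLCD1 (35.8), the peptide hormone UCN2 (34.7) and GTSF1L (32.9) were also among the 20. FAM167B, second with 72.1 per kb, was highest in Lean 8, with 66.1, 184 and 88.4 normalized counts. TAAR3 was low in Lean 8, with 71.6, 14.9 and 48.3.

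**Figure D2:**
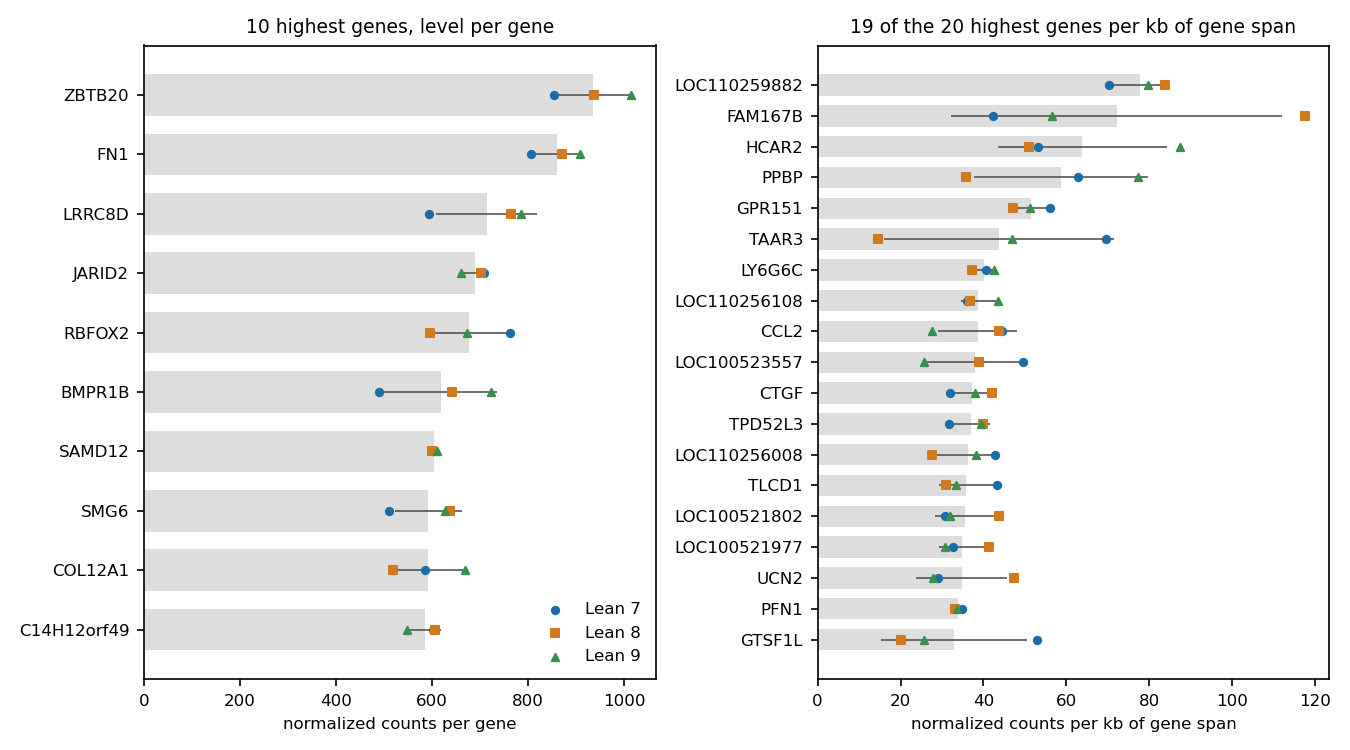
The 10 genes with the highest exonic 5hmC per gene (left, normalized counts) and 19 of the 20 with the highest level per kb of gene span (right, normalized counts per kb). Grey bars are means of 3 libraries with SD bars and points are single libraries. The points of SAMD12 and PFN1 lie within a narrow range, while the points of FAM167B and TAAR3 are far apart.

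A smaller set of genes was high on both scales. By a rule chosen after the values were seen, 24 genes lay both in the highest 1% per gene and in the highest 5% per kb of span, 22 of them with a gene name. Matrix and wound-response genes included FN1, COL7A1, which encodes the anchoring fibril collagen, and THBS1, which encodes thrombospondin 1. Signal molecules were WNT5A, GDNF, a neurotrophic factor, and the cytokine gene IL1A, with PTGS2, the inducible cyclooxygenase, beside them. GJA1 encodes the gap junction protein connexin 43, PRDM1 and ETS2 are transcription factors, NACA is a ribosome-associated chaperone and YTHDF2 reads methylated RNA.

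GJA1 had 217, 215 and 219 normalized counts and GDNF 218, 221 and 223, the closest agreement between libraries in the set. WNT5A had 309, 294 and 337 and PTGS2 had 265, 248 and 303. THBS1 was the most variable of the set, at 618, 514 and 305, with Lean 9 lowest. PRDM1 ran the other way, with 229, 333 and 432. Further named genes of the set were LRRC8D, ZFYVE27, BCO1, ITPRIP, SLC35E2B, C7H6orf89, COMMD8, GAREM2 and BLCAP.

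At the other end, the 20 lowest genes per kb among those with a span of at least 2 kb were all listed at 0 in Lean 7, 8 and 9, and spanned 21.1 to 528 kb. They were the longest of 118 such genes tied at 0, so their length follows from how the tie was ordered. C8H4orf22 (528 kb), GSG1L (238 kb), NDUFAF2 (180 kb), NT5C2 (105 kb) and PNPLA4 (83.0 kb) were the longest, and the integrin gene ITGB2, the Krüppel-like factor gene KLF13 and the splicing cofactor gene ARGLU1 were also among them. LRMP, CFAP53, AMY2, SLC35G2, ARHGEF16 and TPPP completed the named genes, and 6 were LOC loci (2828 of all 18933 genes are).

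The 226 genes at 0 were mostly short, with a median span of 2.22 kb against 21.6 kb for all genes. Of the 226, 107 were LOC loci, against 2828 of all 18933 genes. They included genes of developmental regulators, namely SHH, SOX2, DLX5, HOXB1, OLIG1, ASCL2, POU4F2, BARX1, CDX1, RAX, SIX5 and FGF3, and genes that most cells use, such as PCBP1, TMSB10 and LDHB. These genes were chosen from the list after it was seen. No row of the table was at 0 in all 6 columns, so each of the 226 was above 0 in an untreated Obese-MSC column by construction. All 226 had at least 0.5 normalized counts in 1 or more of those columns. Genes at 0 in all 6 columns are not in the table and cannot be seen here. A 0 is a listing at a depth of about 1 read per normalized count, not a measured absence of 5hmC. Among the longest 10% of genes, the lowest named genes with any signal were STS, FAM19A5 and LUZP2, each with a mean under 0.5 normalized counts, and the brown-fat regulator gene PRDM16 had 1.15, 2.98 and 0.00881 over 308 kb.

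Gene classes were compared on 3 scales: the median level per gene against 12.6 normalized counts for all genes, the median per kb of span against 0.548, and the median span percentile against 50. Of 49 lists of families and functions, 46 had members. On all 3 scales 14 lists lay above the all-gene median and 8 below, and 24 changed side between scales. These sides are those of the mean of the 3 libraries. Per gene, some of these lists lay on the other side in single libraries. By span percentile, the 3 libraries lay on 1 side of 50 together in 40 of the 46. With genes under a mean of 3 left out, 8 lists changed side per kb, among them laminin and integrin, imprinted, oxidative phosphorylation, mitochondrial ribosomal and beta-defensin genes. In the background, 10.0% of all genes are by construction in the highest and 10.0% in the lowest 10% per kb, and counts of members at either end are read against those shares. The ends by span percentile hold about the same share of all genes by construction, and they are given beside the ends per kb, which favour short genes at the top and long genes at the bottom. Counts of members with means under 3 are read against all genes, of which 3115 (16.5%) were at 3 or less. Such counts also follow gene span, since the shortest 10% of genes had a median of 2.45.

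**Figure D3:**
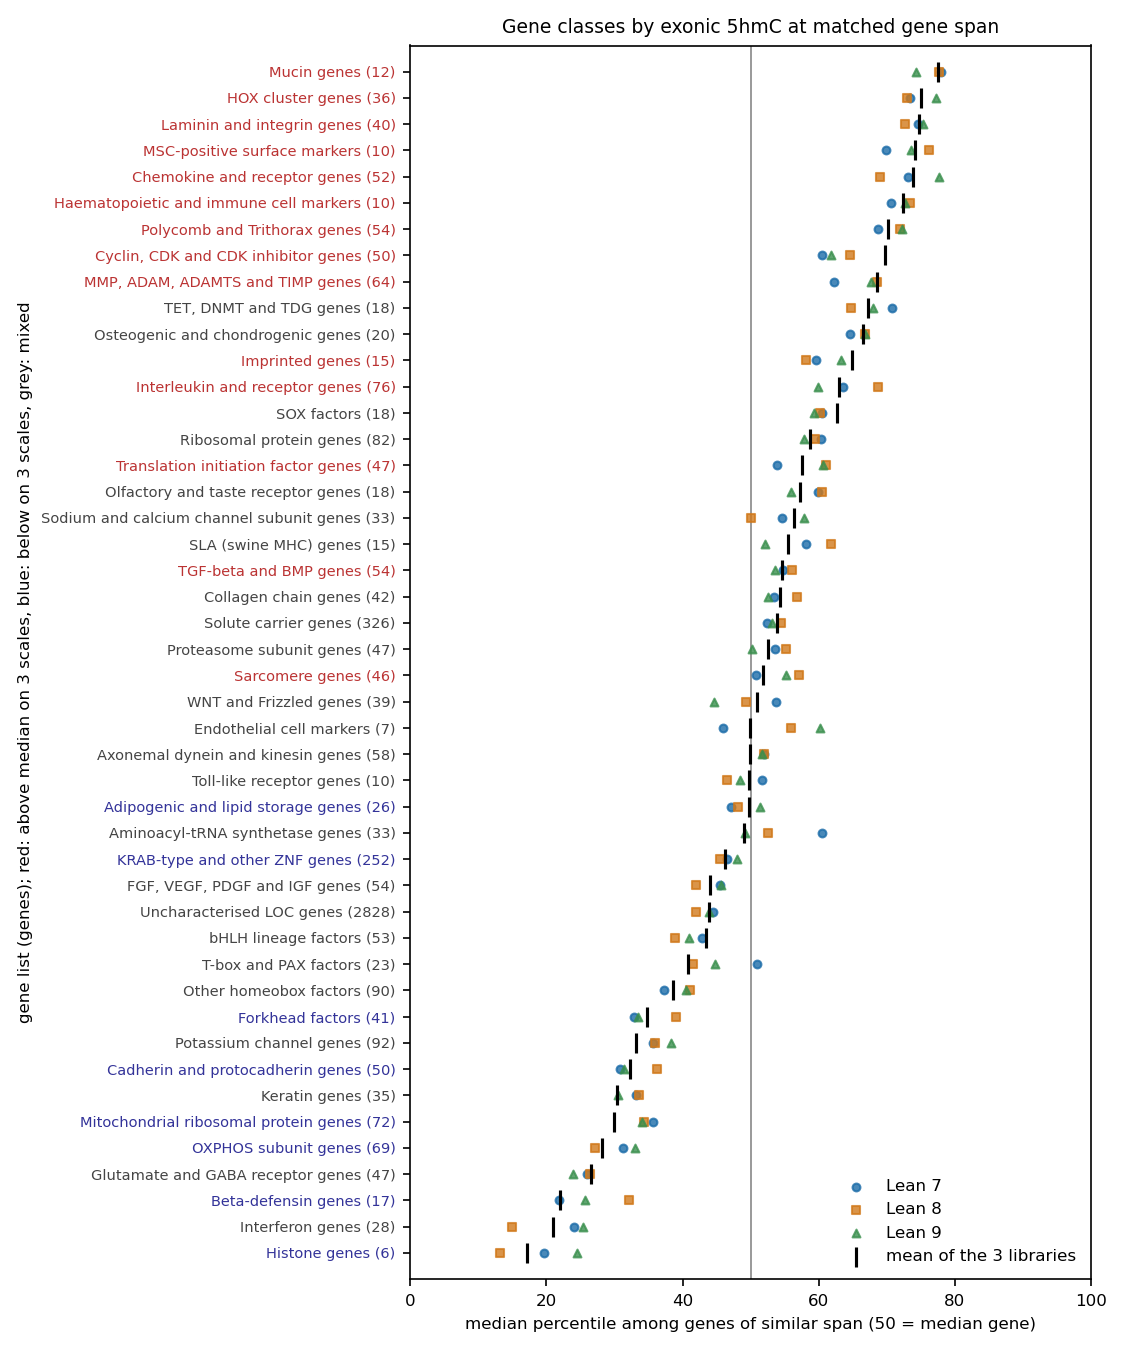
Median span percentile of 46 gene lists (number of genes in brackets) in each Lean-MSC library and for the mean of the 3. For the mean of the 3 libraries, mucin, HOX, laminin and integrin, MSC marker, chemokine, haematopoietic marker, and Polycomb and Trithorax genes lie above 70. Histone, interferon and beta-defensin genes lie below 25. Single libraries can cross these bounds, as in Lean 8 for chemokine (69.0) and beta-defensin genes (32.1). In 40 of 46 lists the 3 libraries lie on 1 side of 50.

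HOX genes, the clustered homeobox factors that give cells their position along the body axis, were above the median on all 3 scales for the mean of the 3 libraries. Their 36 members had a median span percentile of 75.04, with 73.4, 73.0 and 77.3 in the 3 libraries, and medians of 16.0 normalized counts and 2.18 per kb. Per gene the medians were 13.2, 10.9 and 15.9 in Lean 7, 8 and 9, below the all-gene median of 12.9 in Lean 8. At the ends per kb, 12 of 36 (33.3%) were in the highest 10% and 1 in the lowest. Their median span was 4.04 kb, and among genes of similar span 5 of 36 (13.9%) were in the highest 10%, near the background. HOXC6 had the highest level, 69.2, 97.3 and 74.99, and HOXB2 was highest per kb, with 36.1, 30.8 and 35.9 normalized counts or 9.23 per kb. The lowest were HOXC12 (0.0203, 1.99 and 0.00451) and HOXB1, at 0 in all.

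The level differed along the clusters. The 27 genes of paralogue groups 1 to 10 had a median span percentile of 80.8, and 23 of them lay above 50. The 9 genes of groups 11 to 13, which pattern the distal limb and the hind end of the body, had a median of 31.1, and 2 lay above 50. In the single libraries the medians were 80.2, 74.8 and 78.7 for groups 1 to 10 against 47.7, 25 and 36.2 for groups 11 to 13. HOXC11 was an exception among the latter, with 16.0, 21.8 and 28.7 normalized counts. Among the 4 clusters the median span percentile for the mean of the 3 libraries ran from 69.0 for HOXD to 80.8 for HOXC. That order did not hold in Lean 8 and 9, where HOXA was highest (74.8 and 86.4) and HOXB lowest (62.7 and 68.7). The division by paralogue group was made after the values were seen.

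Other developmental factors stood lower. The 90 homeobox genes outside the HOX clusters had a median span percentile of 38.5 (37.2, 41.1 and 40.6) and 4.89 normalized counts, although per kb they lay above the all-gene median at 0.691. Of these 90, 13 (14.4%) were in the lowest and 5 in the highest 10% per kb, against 19 (21.1%) and 5 by span percentile, and 5 were at 0 in all 3 libraries. PHOX2A, a neuronal factor, was highest per kb with 167, 164 and 138 normalized counts. The 41 forkhead factors were low on every scale (span percentile 34.7), and the 53 basic helix-loop-helix lineage factors had a span percentile of 43.4 and 3.52 normalized counts but 0.874 per kb. BHLHE40, a clock-linked repressor, stood out among them with 161, 169 and 162. The 18 SOX factors had a span percentile of 62.7, above the median per kb (0.716) but below it per gene (11.01).

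Genes of chromatin regulators were high. The 54 Polycomb and Trithorax genes, which maintain repressed and active states of developmental genes, had a median of 29.0 normalized counts, 0.835 per kb and a span percentile of 70.1 (68.7, 72.0 and 72.2), and 44 of 54 lay above 50. None had a mean under 3, where 16.5% of all genes were at 3 or less. The median span of this list was 49.2 kb against 21.6 kb for all genes. After JARID2, the Trithorax-related genes KMT2C (226, 196 and 238), KMT2A (193, 199 and 159), KMT2E (161, 188 and 177) and KMT2D (155, 173 and 191) followed, of which KMT2A, KMT2C and KMT2D encode histone H3 lysine 4 methyltransferases. RING1 was highest per kb with 4.73, and RNF2 and KDM4C were lowest with 0.112 and 0.0491.

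The genes of the DNA methylation and demethylation machinery itself, 18 in number, changed side between scales, with a median of 46.0 normalized counts per gene and a span percentile of 67.3, above the all-gene median, and 0.506 per kb, below it. TET3 had 60.0, 52.6 and 84.1, TET2 had 56.3, 39.7 and 48.3, and TET1 had 32.9, 34.7 and 39.0. Their span percentiles were 78.4, 66.5 and 54.4, and the ranges of TET2 and TET3 overlapped. The methyltransferase genes DNMT1 (50.9, 52.6 and 46.2), DNMT3A (50.9, 48.6 and 50.3) and DNMT3B (50.7, 41.7 and 39.1) had similar levels per gene over spans of 58.8, 107 and 40.4 kb.

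MBD6 was the highest of these 18 per kb, with 82.7, 95.3 and 94.5 normalized counts or 10.2 per kb, and DNMT3L (37.7, 64.5 and 69.8) was next. The glycosylase gene TDG, which removes oxidised methylcytosine, had 8.03, 14.9 and 8.24. MBD3, the lowest of the list per gene, had 3.33, 1.98 and 1.04. Further members, with their means over the 3 libraries, were MBD5 (191), MBD2 (75.3), UHRF2 (57.8), MBD1 (25.7), UHRF1 (17.2), MBD4 (14.5) and SMUG1 (8.73).

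Matrix and adhesion genes were not alike. The 40 laminin and integrin genes had a median of 41.7 normalized counts and a span percentile of 74.7 (74.6, 72.7 and 75.4), with ITGA10 at 132, 156 and 96.6. The 64 genes of matrix proteases and their inhibitors had a span percentile of 68.5 and 44 above 50, with MMP14 at 71.4, 102 and 68.9 and TIMP1 at 31.6, 31.8 and 24.7. The 42 collagen chain genes were high per gene (37.5 normalized counts), low per kb (0.316) and at 54.3 by span percentile. COL7A1 (210, 253 and 241) and COL1A1 (107, 100 and 96.6) were highest per kb, while COL18A1 (0.0396, 3.98 and 0.00880) and COL22A1 (4.48, 2.98 and 3.09) were lowest.

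The 50 cadherin and protocadherin genes, most of them cell-cell adhesion molecules of neurons and epithelia, were low on all 3 scales, with a span percentile of 32.2, and 17 of 50 (34.0%) were in the lowest 10% per kb and 9 (18.0%) by span percentile. CDH4 had 3.37, 2.98 and 2.06 and CDH12 had 5.78, 9.93 and 9.24. Against that, CELSR3 had 94.1, 135 and 125 and PCDH18 had 76.7, 62.5 and 61.6. The members of this list thus ran over more than an order of magnitude in each library. Per gene its median lay just above the all-gene median in Lean 8 (12.92 against 12.89).

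Genes of immune signals also divided. The 52 chemokine and receptor genes had 2.34 normalized counts per kb, a span percentile of 73.9 (73.1, 69.0 and 77.6) and 14.4 per gene, and 22 of 52 (42.3%) were in the highest 10% per kb and none in the lowest. By span percentile 15 (28.8%) were in the highest and 2 in the lowest 10%. Per gene the medians were 11.9, 11.9 and 12.4 in Lean 7, 8 and 9. They were below the all-gene medians of 12.4 and 12.9 in Lean 7 and 8. Within the list CCL4 (45.0, 25.8 and 45.2) was next to CCL2 per kb, and the neutrophil chemokine gene CXCL8 had 50.9, 40.7 and 67.7. The platelet chemokine gene PPBP, at 58.7 per kb, is not in this list. CXCL12, the stromal chemokine that retains blood stem cells, was lower at 10.2, 10.9 and 13.3. CCL24 (1.19, 2.98 and 2.06) and CCL28 (2.32, 4.97 and 2.07) were at the low end.

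The 76 interleukin and receptor genes were above the median on all 3 scales (span percentile 63.0). IL6, a senescence-associated and acute-phase cytokine gene, had 98.6, 116 and 128 normalized counts or 25.9 per kb, and IL10 had 105, 69.5 and 87.3 or 16.7 per kb. The lowest per kb were the long synaptic receptor genes IL1RAPL1 (32.7, 20.8 and 32.8) and IL1RAPL2 (3.50, 5.96 and 7.17). Interferon genes, which are short and mostly single-exon, had a median of 0.688 normalized counts and a span percentile of 20.9, both below the all-gene median, and 1.18 per kb, above it. That side per kb was seen in Lean 9 alone (1.37, against 0.0822 in Lean 7 and 0.208 in Lean 8), and it turned with the median of the 3 libraries. Of these 28 genes 25 had means under 3, where 16.5% of all genes were at 3 or less. Near-identical copies could also share reads, so few of these 28 genes can be ordered. Among the 17 beta-defensin genes, 11 had means under 3 and the span percentile was 22.0, while DEFB124 had 46.3, 42.7 and 47.2. The 15 swine leukocyte antigen (SLA) genes, where near-identical copies could share reads, had a span percentile of 55.5 and ran from SLA-DMA (64.2, 43.7 and 57.5) to SLA-5 at 0.

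Housekeeping classes did not lie together. The 69 genes of oxidative phosphorylation subunits were low on all 3 scales, with 4.26 normalized counts, 0.480 per kb and a span percentile of 28.2 (31.3, 27.2 and 33.03). The 72 mitochondrial ribosomal protein genes were similar at 5.78, 0.466 and 30.0. The 82 cytosolic ribosomal protein genes had 6.64 normalized counts per gene, below the all-gene median, but 1.64 per kb and a span percentile of 58.8, above it, and 22 of the 81 with a span (27.2%) were in the highest 10% per kb but 9 (11.11%) by span percentile. Translation initiation factor genes were above the median on all 3 scales (57.6), with EIF5A at 211, 133 and 141. NDUFB10 (65.3, 47.7 and 45.2) and RPL4 (93.6, 74.5 and 65.8) were the highest per kb of their lists, and NDUFB7 and RPS14 were at or near 0. Processed pseudogenes could share reads with ribosomal protein genes, so single members of that list are uncertain.

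The 50 cyclin, CDK and CDK inhibitor genes were above the median on all 3 scales, with a span percentile of 69.7 for the mean and 60.4, 64.6 and 61.9 in the single libraries, and the mitotic kinase gene CDK1 had 120, 130 and 130. The 6 histone genes in the table were lowest of all lists by span percentile, at 17.2. H2AFY, the macroH2A variant gene, was the one member above 50 with 34.1, 48.7 and 45.2 normalized counts, and the other 5 had means under 3.

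Genes of excitable cells were mostly low for their gene span. The 47 glutamate and GABA receptor genes had 16.5 normalized counts per gene, above the all-gene median, but 0.0876 per kb and a span percentile of 26.5 (26.0, 26.4 and 23.8), below it, and 24 of 47 (51.1%) were in the lowest 10% per kb and none in the highest. With a median span of 154 kb, 8 of 47 (17.0%) were in the lowest 10% by span percentile and 1 in the highest. GRID1 had 11.4, 16.9 and 8.25, while GRM2 was the highest per kb with 12.7, 25.8 and 24.6. The 92 potassium channel genes were also above the median per gene (12.8) and below it per kb (0.297) and by span percentile (33.1), with 24 (26.1%) in the lowest and 11 (11.96%) in the highest 10% per kb. By span percentile these ends were nearly even, with 16 (17.4%) in the lowest and 14 (15.2%) in the highest 10%. KCNJ13 (104, 110 and 140) and KCNE4 (54.3, 62.6 and 48.3) led, and KCNB2, over 428 kb, had 0.0397, 0.991 and 3.06. The 33 sodium and calcium channel subunit genes had a span percentile of 56.4.

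Signalling families lay nearer the middle. The 54 TGF-beta and BMP genes were slightly above the median on all 3 scales (span percentile 54.5), with the activin subunit gene INHBA at 38.4, 34.7 and 32.9. The 39 WNT and Frizzled genes had a span percentile of 51.0, but the libraries lay on both sides of 50 (53.7, 49.3 and 44.6). FZD9 (104, 114 and 90.4) followed WNT5A per kb, and WNT5B, its paralogue, had 3.39, 3.97 and 2.07. Of the 54 FGF, VEGF, PDGF and IGF genes (span percentile 44.1, above the all-gene median per gene and below it per kb), PDGFRA, a receptor of stromal progenitors, had 228, 160 and 178.

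Lineage and marker genes were read against the label of the cells. The 10 MSC surface marker genes had a median span percentile of 74.2 (69.9, 76.2 and 73.6), and 7 lay above 50, with CD44 (183, 211 and 152), ITGB1 (50.9, 62.6 and 46.3), ENG (51.7, 37.7 and 31.9), MCAM (35.2, 42.7 and 43.1), PDGFRB (22.8, 31.8 and 36.9), NT5E (16.2, 28.8 and 35.9) and THY1 (17.0, 21.9 and 12.4). LEPR (20.2, 14.9 and 12.4), ALCAM (2.299, 2.98 and 3.08) and NES (1.21, 3.97 and 3.08) lay below. The 10 haematopoietic and immune marker genes, which MSCs are expected not to express, had a median span percentile of 72.4 (70.7, 73.4 and 72.8) and 8 above 50. CD68 had 57.9, 87.4 and 78.0, PTPRC, which encodes CD45, had 47.7, 68.5 and 61.6, CD3E had 48.6, 52.6 and 47.3, and CD14 was at 0. In the summed level, the MSC markers held 377 to 458 normalized counts per library, the haematopoietic markers 300.1 to 354 and the endothelial markers 227 to 307. CD44 alone gave 183, 211 and 152 of the MSC sums, and their place above the haematopoietic sums rests on that gene. The sums are not divided by length, and the lists differ in span.

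Further haematopoietic markers were CD8A (34.0, 39.7 and 36.0), ITGAM (41.6, 25.8 and 31.8), CD34 (19.2, 20.9 and 13.4), CD4 (16.9, 9.92 and 17.4) and CD79A (4.60, 7.95 and 5.15). The 7 endothelial marker genes had a span percentile of 49.9, with PECAM1 at 99.8, 132 and 150 and ESAM at 1.17, 1.99 and 2.05, and between them TEK (mean 41.3), TIE1 (36.8), VWF (32.1), KDR (14.7) and CDH5 (11.04). The endothelial list thus lay below the MSC list by span percentile in each library (45.9, 55.9 and 60.2 against 69.9, 76.2 and 73.6), while the haematopoietic list lay within 3 percentile points of it in each. Whether other cells contributed to these values was not tested.

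Fat genes divided as well. The 26 adipogenic and lipid storage genes were slightly below the median on each scale (9.41 normalized counts, 0.452 per kb and a span percentile of 49.8), with Lean 9 just above 50 at 51.3. ADIPOQ, the adiponectin gene, had 111, 95.3 and 82.2 or 7.79 per kb, and PLIN2, which coats lipid droplets, had 134, 120 and 108. PPARG, the master regulator of fat cell formation, had 75.3, 44.7 and 42.2. FABP4 (17.8, 9.93 and 5.19), LEP (7.98, 8.93 and 10.3), PLIN1 (2.33, 5.97 and 2.07) and CIDEC (2.299, 1.98 and 4.09) were lower, and DGAT2 (1.10, 0 and 0.00229) was lowest per kb. The 20 osteogenic and chondrogenic genes had a span percentile of 66.5 and 25.8 per gene but 0.443 per kb. The low side per kb came from Lean 8 (0.711, 0.350 and 0.566 in the 3 libraries), and without that library the log2 ratio to the all-gene median turned from -0.31 to 0.11. RUNX2, the bone master factor, was at 215, 171 and 268 normalized counts and the osteopontin gene SPP1 at 49.0, 83.4 and 90.3. DLX5 was at 0 and ALPL at 1.20, 1.98 and 4.09.

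Further lists were above the median on all 3 scales without being typical of MSCs. For the mean of the 3 libraries, the 12 mucin genes had the highest span percentile of any list, 77.5 (77.9, 77.6 and 74.2), with MUC1 at 27.3, 36.7 and 34.9. In Lean 9 chemokine (77.6), HOX (77.3) and laminin and integrin genes (75.4) were higher. The 46 sarcomere genes were near the middle at 51.9, with TPM2 at 56.7, 73.5 and 70.9. The 15 imprinted genes had 64.9, with the growth factor receptor adaptor gene GRB10 at 101, 105 and 80.2 and NNAT at 30.5, 15.9 and 41.0, while KCNQ1, over 314 kb, had 1.26, 3.97 and 7.15. Per gene the imprinted list lay just below the all-gene median in Lean 7 (12.30 against 12.44). Of the families on the low side, the 252 zinc finger (ZNF) genes lay just below the median on all 3 scales, at 46.3.

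The other lists changed side between scales. Toll-like receptor genes (span percentile 49.8), axonemal dynein and kinesin genes (49.9, with 51.7 to 52.0 in the single libraries), aminoacyl-tRNA synthetase genes (49.0), proteasome genes (52.5) and the 326 solute carrier genes (53.8) lay near the middle. T-box and PAX factors had 40.8, although Lean 7 alone was above 50 at 51.0. The 35 keratin genes of epithelia had 30.4, with 3.82 normalized counts per gene but 0.585 per kb, and the side per kb turned without Lean 7, without Lean 8 (log2 ratios of -0.074 and -0.16 against 0.095) and with the median of the 3 libraries. The 18 olfactory and taste receptor genes had 57.3 and 2.25 per kb but 6.44 per gene. The 2828 uncharacterised LOC loci had 43.9, and 586 (20.7%) of them were in the highest and 335 (11.8%) in the lowest 10% per kb. These loci are short, with a median span of 4.99 kb, and by span percentile the ends were the other way around, with 233 (8.24%) in the highest and 453 (16.0%) in the lowest 10%.

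By chromosome the autosomes differed among themselves in span percentile, and X lay below all of them. The median span percentile of the 18 autosomes ran from 43.4 on chromosome 8 to 55.5 on chromosome 5. The 709 genes of X had 38.1, with 39.2, 36.7 and 39.8 in the 3 libraries, lower than each autosome in each library. Per gene the X median was 8.98 normalized counts and per kb 0.384, and on these scales X was not the lowest chromosome, since chromosome 2 had 8.77 per gene and chromosomes 8 and 16 had 0.365 per kb. Against all autosomal genes, the log2 ratio of the X median was -0.53 per kb and -0.51 per gene.

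The pigs were female, and 9 genes of the table are placed on chromosome Y in the assembly. Of these, 8 had means of 0 to 6.94 normalized counts. LOC110257914 was the exception, at 43.2, 46.7 and 66.7, and where its reads came from was not tested.

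**Figure D4:**
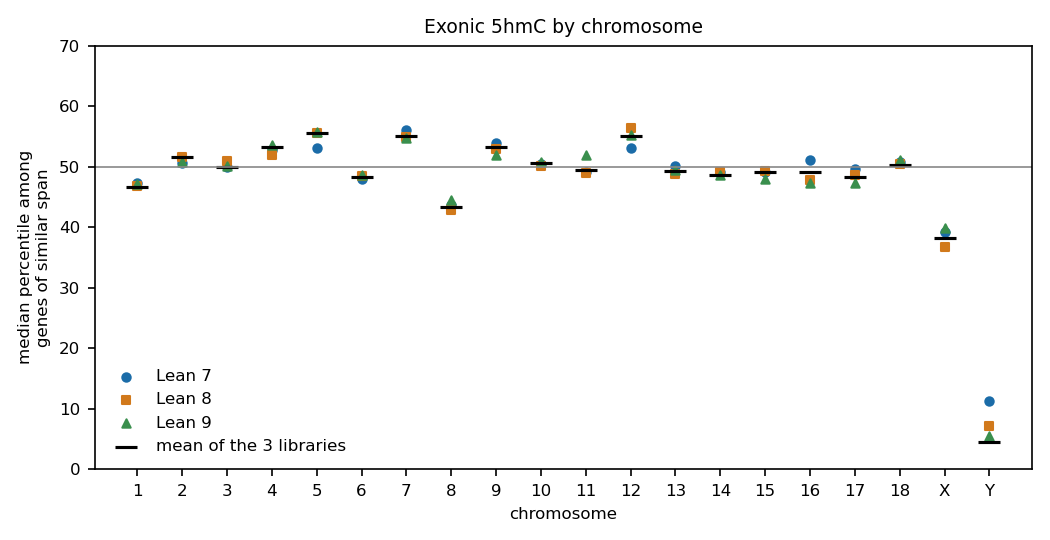
Median span percentile of the genes of each chromosome in each Lean-MSC library and for the mean of the 3. The autosomes lie between 43.4 and 55.5, X at 38.1 lies below all of them, and the 9 genes placed on Y have a median of 4.49.

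Neighbouring genes tended to resemble each other. Over 14301 pairs of successive genes at most 100 kb apart, the span percentiles had a Spearman's rho of 0.23, and 0.21, 0.22 and 0.21 within the single libraries. Genes with more annotated transcripts were also higher at matched span, from a median of 44.1 for the 8744 genes with 1 RefSeq transcript to 63.9 for the 2475 with 7 or more. Both patterns are descriptions over genes of shared libraries. The counts are not divided by exonic length, and whether that length rises with the number of transcripts at matched span was not tested.

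The 3 libraries ranked genes alike. On log2(value + 1) Pearson's r across 18933 genes was 0.920 for Lean 7 and 8, 0.916 for Lean 7 and 9 and 0.922 for Lean 8 and 9, and Spearman's rho was 0.927, 0.939 and 0.932. By span percentile, which ranks genes only against others of similar span, rho was 0.888, 0.910 and 0.894. For the level per gene in the 15818 genes with a mean of at least 3, rho was 0.903, 0.912 and 0.911. Of the 1894 genes in the highest 10% of a library, 1414 (74.7%) were in the highest 10% of all 3. At the low end 869 of 1894 (45.9%) were shared, with ties broken in table order. Values just above 0 in Lean 7 and 9 rose with the value in the other libraries. Where RPS14, HOXC12 and COL18A1 had 0.995, 1.99 and 3.98 in Lean 8, Lean 7 had 0.0103, 0.0203 and 0.0396. Ranks of such genes are therefore not independent between libraries, which adds to the rank agreement over all genes.

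Agreement followed the level. The median CV was 0.966 in the lowest 10% of genes and 0.149 in the highest, where 1 over the square root of the mean, the CV of pure read counting, had a median of 0.101. The variance between libraries was 1.10 times the mean in the lowest decile and 4.54 times in the highest, so low genes varied about as read counting would and high genes varied more. Among 6932 genes with a mean of at least 20 the median CV was 0.182, and 158 (2.28%) had a CV over 0.5. Of those 158, 94 were highest in Lean 7, 25 in Lean 8 and 39 in Lean 9.

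**Figure D5:**
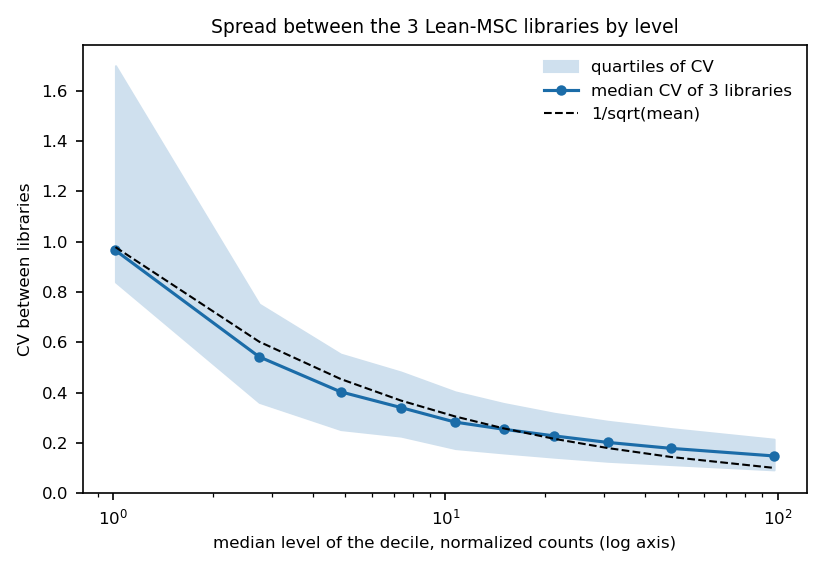
CV between the 3 Lean-MSC libraries by decile of mean level (log axis, normalized counts), as the median with its quartiles, beside 1 over the square root of the mean. The median CV runs from 0.966 in the lowest decile to 0.149 in the highest and lies above the dashed line from the 7th decile on. Pure counting of 3 values gives a median CV below that line, so the crossing is not where counting alone ends.

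The 5 most variable genes above that minimum differed severalfold between libraries. FOXO3, a forkhead factor of stress resistance, had 19.7, 72.5 and 16.5 normalized counts, with Lean 8 high. SIKE1, a suppressor of an innate immune kinase, had 48.8, 8.91 and 13.4, with Lean 7 high. CATSPER3, a sperm calcium channel gene, had 47.8, 0.966 and 26.7, with the 3 libraries far apart and Lean 8 lowest. The other 2 were LOC loci, of which 1 was high in Lean 8 and 1 in Lean 7.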

How the data were processed

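Lean-MSC libraries were made by hMeDIP-seq with a 5hmC antibody on DNA of swine adipose MSCs at early passage. The authors aligned reads with Bowtie2 2.3.3.1 to the porcine assembly (susScr 11.1), removed duplicates with Picard 1.67, assigned the exonic reads to genes with HTSeq 0.9.1 and normalised the counts with edgeR 3.28.1. The deposited signal per gene is a normalized count, fractional and not divided by length, and no row of the table was at 0 in all 6 columns. The 3 Lean-MSC columns were assigned from the submitters' labels, and no column lacked a sample.

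Means, SDs, CVs and correlations were computed from these values with pandas 2.3.3, numpy 2.4.6 and scipy 1.17.1 under Python 3.11.15, plots were drawn with matplotlib 3.10.9, and the code was tested on simulated data. No group comparison and no test was made. Symbols were matched to RefSeq genes of Sscrofa11.1, with 1 position for 18914 genes and more than 1 for 19. Lengths are gene spans, since exon lengths, intended at first, and sequences were not used here. Low values lie on steps near 1 in Lean 8 and 9 (0.993 and 1.03), while the best step in Lean 7, 1.13, fitted 37.2% of values under 200. Whole reads could thus not be recovered in all 3 libraries, and no counting interval is given.

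Members and gene lists were chosen with earlier results of these data known. Genes named are the 10 highest per gene, the 20 highest per kb with a mean of at least 10 and at least 5 in each library, the 20 lowest per kb with a span of at least 2 kb, up to 2 members at each end of a list, marker and TET/DNMT genes, and the 5 highest CVs at a mean of at least 20. A few genes that these rules select are left unreported, though counts and medians of lists include them. Further members of lists, the genes high on both scales and those at 0 or lowest among the longest genes were chosen after their values were seen. Alternatives left out each library, rescaled the totals, required a mean of at least 3, or used other pseudocounts, length scales and shares of genes. Lists with no member in the table, 3 in number, were mitochondrially encoded, microRNA and small nucleolar RNA genes.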

Additional observations from a re-analysis of the deposited data

How the results depend on the processing

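The depth of about 1 read per normalized count limits the low end, where genes with means under 3 cannot be ordered. With genes under a mean of 3 left out, the share of signal in the highest 10% of genes was 42.1% and the median r between libraries 0.901. That median r was 0.905 and 0.937 with pseudocounts of 0.5 and 3, against 0.920, and 0.906 per kb of gene span. The median CV was 0.244 for genes with a mean of at least 3 and 0.277 for all genes above 0, in place of 0.182 for a mean of at least 20, and 0.135 to 0.163 without each library in turn, where a CV of 2 values is smaller by construction. Rescaling to equal totals moved no list past the spread between libraries. The number of lists above the all-gene median per kb was 26, and 25 to 30 under the alternatives, but which lists these were depended on the scale. Against the level per kb, 24 lists lay on the other side per gene and 11 by span percentile. Without single libraries 1 to 3 lists changed side per kb, which were keratin, aminoacyl-tRNA synthetase, T-box and PAX, and osteogenic genes, and 4 did so with the median of the 3 libraries. Beta-defensin and interferon genes were among those 4. The alternative of coding length in place of exon length was not run, since neither length was used here. No paired analysis was possible because 1 group was described and no result comes from a test.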
